A study of Homo sapiens with 4 samples.

Results

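Zinc finger genes of human chromosome 19 were examined in nascent RNA from HCT116 cells, a colorectal carcinoma line. They were chosen by name and place: every protein-coding gene on chromosome 19 whose symbol is ZNF, a number and at most 1 letter. The rule gave 246 genes among 60656 listed features, with 50 in band 19p13, 33 in 19p12, 162 in 19q13 and 1, ZNF536, in another band. The study counted 4-thiouridine-labelled RNA (TTchem-seq, which captures RNA made during a short pulse) in 2 DKO and 2 WT libraries. DKO cells carry TOP2A fused to the mini auxin-inducible degron (mAID) on both alleles, lack TOP2B (TOP2B -/-) and received 500 µM indole-3-acetic acid (auxin) for 8 h. WT libraries are labelled wildtype. The treatment text describes HCT116 TOP2A mAID cells beside the TOP2B -/- line and records auxin for the TOP2B -/- line only. Both groups were arrested in G1 with 2 µM palbociclib for 28 h and labelled with 1 mM 4-thiouridine for 30 min. Loss of both enzymes, auxin and any difference between the cell lines therefore cannot be told apart. Whether replicates were separate cultures is not given in the labels, so p-values measure only the spread between these libraries, which may be technical.

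Most proteins encoded by these genes bind DNA through tandem arrays of C2H2 fingers, each folded around a zinc ion. Many also carry a KRAB domain, which recruits the corepressor TRIM28 (KAP1) and through it the histone H3 lysine 9 methyltransferase SETDB1, and so silences transposable elements. The genes arose by repeated local duplication and lie in tandem clusters. Their similarity matters here, because reads that fit more than 1 copy may be lost or misplaced, so values of close paralogs are uncertain.

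The promoters of the 3 genes with the largest rises and the 3 with the largest falls among named genes with an entry are shown, because they stand out by size among the 70 called genes. The larger falls of ZNF426, outside the rule for named genes, and ZNF211, which has no entry, are not shown. Each runs from 250 bases before to 50 after the start in RefSeq (GRCh38.p14, the hg38 build), 5′ to 3′ on the gene's strand. Capitals mark CG dinucleotides. ZNF850 (chr19:36772758-36773057, minus strand), ZNF701 (chr19:52570037-52570336, plus strand) and ZNF350 (chr19:51986791-51987090, minus strand) rose in DKO cells. ZNF266 (chr19:9435524-9435823, minus strand), ZNF440 (chr19:11814023-11814322, plus strand) and ZNF577 (chr19:51887902-51888201, minus strand) fell.

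ZNF850: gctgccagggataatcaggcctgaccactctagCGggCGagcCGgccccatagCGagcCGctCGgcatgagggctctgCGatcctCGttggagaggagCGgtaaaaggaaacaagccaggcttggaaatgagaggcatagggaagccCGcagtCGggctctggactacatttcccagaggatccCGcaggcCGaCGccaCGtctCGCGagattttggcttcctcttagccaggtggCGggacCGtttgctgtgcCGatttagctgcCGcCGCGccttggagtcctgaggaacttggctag

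ZNF701: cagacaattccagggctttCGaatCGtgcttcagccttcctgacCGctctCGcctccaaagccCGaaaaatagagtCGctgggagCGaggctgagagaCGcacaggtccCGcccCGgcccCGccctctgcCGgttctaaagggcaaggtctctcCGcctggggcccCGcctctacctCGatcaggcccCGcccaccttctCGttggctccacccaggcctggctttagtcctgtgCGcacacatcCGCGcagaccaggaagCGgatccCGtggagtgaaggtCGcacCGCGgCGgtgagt

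ZNF350: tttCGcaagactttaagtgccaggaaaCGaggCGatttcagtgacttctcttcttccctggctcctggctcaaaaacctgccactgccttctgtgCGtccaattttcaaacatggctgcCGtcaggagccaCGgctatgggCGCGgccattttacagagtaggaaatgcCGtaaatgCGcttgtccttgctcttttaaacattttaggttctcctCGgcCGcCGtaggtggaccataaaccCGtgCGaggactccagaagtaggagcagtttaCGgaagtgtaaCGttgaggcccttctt

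ZNF266: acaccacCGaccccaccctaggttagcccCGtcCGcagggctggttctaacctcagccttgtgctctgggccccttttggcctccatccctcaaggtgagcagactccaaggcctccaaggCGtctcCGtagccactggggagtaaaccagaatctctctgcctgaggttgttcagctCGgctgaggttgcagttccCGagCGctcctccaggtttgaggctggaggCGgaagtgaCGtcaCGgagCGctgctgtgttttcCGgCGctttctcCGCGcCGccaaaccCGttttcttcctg

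ZNF440: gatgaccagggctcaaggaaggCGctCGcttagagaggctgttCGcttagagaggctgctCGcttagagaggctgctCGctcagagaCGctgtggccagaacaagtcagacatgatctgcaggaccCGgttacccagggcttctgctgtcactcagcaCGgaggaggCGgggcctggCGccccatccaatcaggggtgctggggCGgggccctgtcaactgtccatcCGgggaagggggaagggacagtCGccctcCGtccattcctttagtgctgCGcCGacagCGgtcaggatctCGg

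ZNF577: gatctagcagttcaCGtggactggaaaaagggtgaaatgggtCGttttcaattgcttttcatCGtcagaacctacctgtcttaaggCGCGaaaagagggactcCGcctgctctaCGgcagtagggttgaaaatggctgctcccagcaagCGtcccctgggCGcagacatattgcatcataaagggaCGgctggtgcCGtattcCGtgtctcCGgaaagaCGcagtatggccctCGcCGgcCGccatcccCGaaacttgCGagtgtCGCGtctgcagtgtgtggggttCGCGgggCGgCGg

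The windows held 23 CG dinucleotides in ZNF850, 26 in ZNF701 and 17 in ZNF350, and with 18 in ZNF266, 18 in ZNF440 and 25 in ZNF577. A promoter was found for 216 of the 246 genes, with a median of 20 CG dinucleotides, against 21 in 947 other protein-coding genes of the chromosome and 14 in all 27305 RefSeq promoters of that length. Motifs were searched on both strands. TATAAA, the TATA box, stood in 4 of the 216 windows (1.85%), against 8.03% of the other chromosome 19 promoters and 11.95% of all. CCAAT was found in 53.7%, 37.4% and 35.7% of the same 3 sets. GGGCGG, the GC box, was found in 67.6%, 66.3% and 44.6%, and AAGATGG, a core bound by YY1, in 7.87%, 8.03% and 6.06%. TNGCGTG, the core of dioxin response elements, was found in 12.5%, 5.07% and 5.51%. In the 13 genes called higher, 1 window held TNGCGTG, and in 51 windows of genes called lower, 6 did. Of the 6 windows shown, ZNF701, ZNF440 and ZNF577 held the GC box, ZNF350 and ZNF440 held CCAAT, and none held the other motifs. Overlaps between motifs were left in, and a match is a string of letters only.

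Counted reads came to between 51142867 and 53777749 per library, and replicates differed by more than sampling noise. TOP2B RNA was 147 and 150 CPM (read counts scaled to library size by TMM) in DKO libraries and 140 and 143 CPM in WT libraries, so its count does not show the edit. TOP2A RNA, whose protein auxin removes, was 165 and 168 CPM in DKO libraries and 126 and 122 CPM in WT libraries. Of the epithelial markers EPCAM, KRT8, KRT18, KRT19, CDH1, CLDN7, VIL1, CDX1, CDX2 and CDH17, 7 of 10 were tested, 4 were lower in DKO and none higher. Their summed level was 426 to 446 CPM in DKO libraries and 470 to 504 CPM in WT libraries. Sums over marker lists are CPM of all counted reads without TMM scaling, and include untested genes. VIL1, CDX1 and CDH17 had too few reads to test. Neuronal markers summed to 525 to 591 CPM in DKO libraries and 135 to 138 CPM in WT libraries, with 3 of 6 tested members higher, most of it SYT1, at 513 and 586 CPM in DKO libraries and 131 and 135 CPM in WT libraries. Mesenchymal markers summed to 101.7 to 109.6 CPM in DKO libraries and 54.9 to 55.7 CPM in WT libraries, with 2 of 4 tested members higher and COL1A2 at 0. Of all tested genes, 21.1% were called lower and 19% higher in DKO (adjusted p under 0.05). Whether the marker lists differ from these shares was not tested. The part of these differences in the results was not tested either.

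Read counts differed widely across the family. Of the 246 genes, 134 had enough reads to be tested and 112 did not, and 39 of those had no read in any library. The filter on reads set this division, so the low counts of untested genes follow from it. No untested gene exceeded 13 reads in any library. Of the tested ones, 15 averaged under 100 reads and 95 at least 500. The untested share was 45.5%, against 32.1% of other protein-coding genes on the chromosome. In 19p12, 21 of 33 genes were untested, in 19p13 23 of 50, and in 19q13 68 of 162. ZNF43 in 19p12, named after its values were seen, had 2 and 4 reads in DKO libraries and 4 and 3 in WT libraries. ZNF430, in the same cluster, had 4292 and 4017 reads in DKO libraries and 4947 and 5162 in WT libraries. Spans of 57.1% of untested genes overlapped another RefSeq gene, against 47.8% of tested ones. A low count need not mean a silent gene, since reads in overlapping or near-identical features may go uncounted, and whether that applies was not tested.

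Among tested zinc finger genes, 57 of 134 were lower in DKO cells and 13 were higher at an adjusted p under 0.05 (edgeR quasi-likelihood test, Benjamini-Hochberg over all 19103 tested genes). This is 52.2% called, against a background of 40.1% of all tested genes and 41% of 773 other tested protein-coding genes of chromosome 19. The lower share was 42.5%, against 21.1% of all tested genes and 35.6% of the other chromosome 19 genes. The higher share was 9.70%, against 19% and 5.43%. Whether the zinc finger genes' shares differ from these was not tested. In bulk RNA, a change in how many cells transcribe a gene and a change in RNA per cell cannot be told apart. The median log2 fold change of the tested zinc finger genes was -0.13, as was that of the other chromosome 19 genes, while protein-coding genes of other chromosomes had a median of -0.018. Of 210 tested ZNF genes on other chromosomes, 65 were lower and 27 higher, with a median of -0.069. Most called changes were small, and 6 of the 57 falls and 4 of the 13 rises exceeded 1.5-fold. Over all tested genes, 877 of 4025 falls and 1248 of 3632 rises did so. Among the other chromosome 19 genes, 40 of 275 falls and 11 of 42 rises did. Whether these shares differ was not tested. Few of the shallow genes were called, 3 of 15 among those that averaged under 100 reads, against 14 of 24 between 100 and 500, 18 of 32 between 500 and 1000, and 35 of 63 with more.

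These counts rest on the spread between replicates. Without WT replicate 1 only 10 genes were lower and 4 higher, and without WT replicate 2 14 and 4; of the 70 calls, 14 and 18 were shared with these fits, and none of the 70 changed sign under any alternative that fitted it. Without DKO replicate 2, 30 were lower and 14 higher, and without DKO replicate 1, 55 and 7. With the Wald test of DESeq2, 33 were lower and 6 higher. That test called 20.8% of other chromosome 19 genes lower and 2.85% higher, against 35.6% and 5.43% in the main fit. Over all genes it called 2524 lower and 2479 higher, against 4025 and 3632. With any library left out, calls also became fewer over all genes and among other chromosome 19 genes. The drop was thus not limited to the zinc finger genes.

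**Figure D1:**
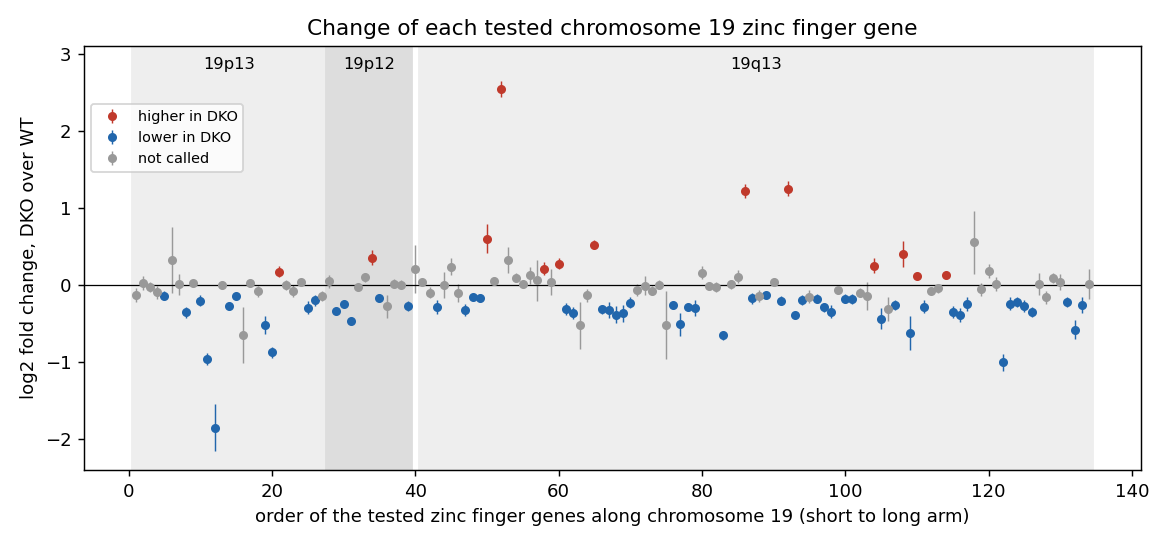
Log2 fold change of DKO over WT (y axis, bars are the standard error) for the 134 tested zinc finger genes in their order along chromosome 19 (x axis), coloured by call. The 57 lower and 13 higher genes are spread over all 3 bands, and the 3 rises above 1 all lie in 19q13.

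By position, 19p13 had 11 lower and 1 higher of 27 tested zinc finger genes (median log2 fold change -0.13), 19p12 had 5 lower and 1 higher of 12 (-0.094), and 19q13 had 41 lower and 11 higher of 94 (-0.14). Other protein-coding genes had 144 lower and 20 higher of 382 in 19p13 (median -0.14), and 129 lower and 22 higher of 385 in 19q13 (-0.12). No other protein-coding gene of the annotation fell in 19p12. The 19p12 median was 0.0080 without WT replicate 2, and the 19p13 median was -0.059 without DKO replicate 2.

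**Figure D2:**
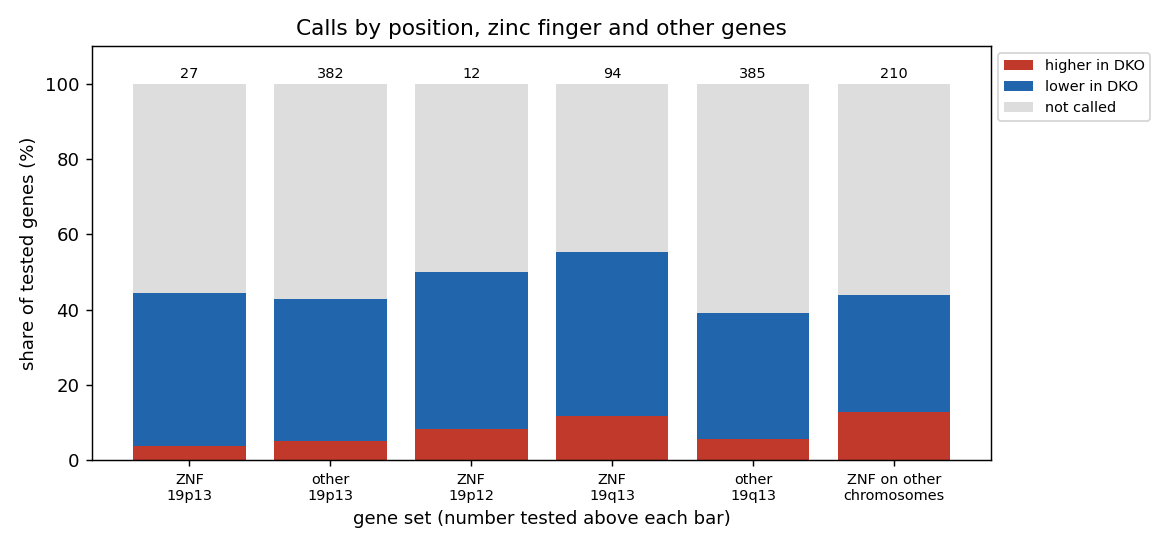
Share of tested genes (y axis, percent) called higher, called lower or not called in DKO against WT, for zinc finger genes and other protein-coding genes by band and for ZNF genes of other chromosomes (x axis, number tested above each bar). Lower calls took 40.7% of zinc finger genes in 19p13, 41.7% in 19p12 and 43.6% in 19q13, against 37.7% and 33.5% of other genes in 19p13 and 19q13.

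Whether the zinc finger genes moved apart from their chromosome was asked with 1 value per library, their mean log2 CPM minus that of the other tested protein-coding genes of chromosome 19. That difference was 0.83 and 0.74 in DKO libraries and 0.70 and 0.80 in WT libraries, so the groups overlapped. DKO exceeded WT by 0.035, less than the SD of 0.066 within DKO and of 0.069 within WT (exact two-sided permutation test, p = 0.667, where 0.333 is the smallest p that 2 against 2 libraries allow). In 19p13 the difference was 0.94 and 0.84 in DKO libraries and 0.93 and 1.04 in WT libraries (DKO minus WT -0.094, exact p = 0.667). In 19p12 it was 2.11 and 2.01 in DKO libraries and 1.94 and 2.11 in WT libraries (0.033, exact p = 1). In 19q13 it was 0.69 and 0.59 in DKO libraries and 0.53 and 0.61 in WT libraries (0.069, exact p = 0.667). With a library left out, the difference over all tested genes ranged from -0.014 to 0.083 and that in 19p12 from -0.056 to 0.12, so both changed sign. No band separated the groups, and a design of this size could not have reached 0.05.

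**Figure D3:**
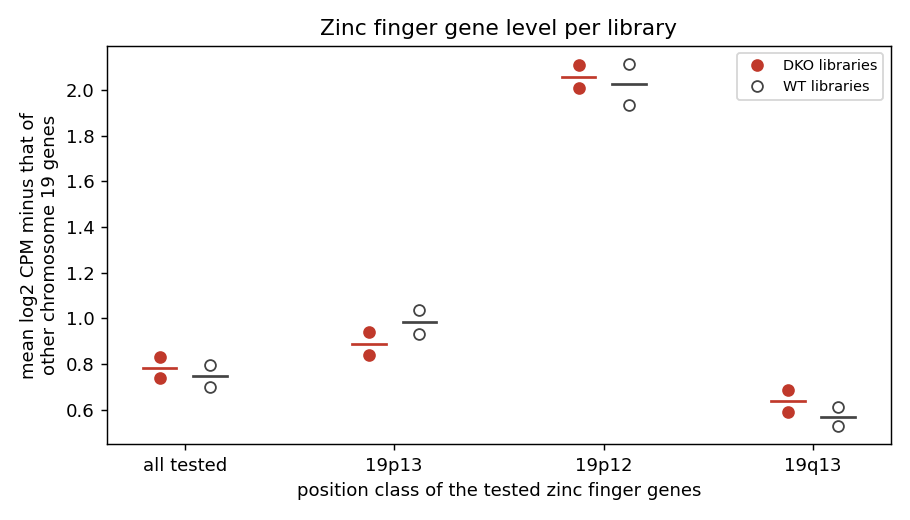
Mean log2 CPM of tested zinc finger genes minus that of other tested protein-coding genes of chromosome 19 (y axis) in each library, for all tested genes and by band (x axis); points are libraries and lines are group means. DKO and WT libraries overlap in every band.

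The largest rise was that of ZNF850 in 19q13 (chromosome 19, 36743480 to 36772807, ENSG00000267041.6). It had 17.7 and 16.5 CPM in DKO libraries, against 2.74 and 3.13 CPM in WT libraries. The groups lay far apart, and the gene was 5.82-fold higher in DKO (log2 2.54 ± 0.10 SE, n = 2 per group, edgeR adjusted p = 1.09e-60). Of the nearest tested genes on either side, ZNF567, 16.0 kb away, had a log2 fold change of 0.054 (adjusted p = 0.449) and ZNF585B, at 409 kb, one of 0.33 (adjusted p = 0.111). ZNF461, which lies on the other side of ZNF567 and is named after its value was seen, was also called higher, with 108 and 79 reads in DKO libraries and 63 and 56 in WT libraries (0.60 ± 0.19, edgeR adjusted p = 0.0056).

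ZNF701 and ZNF350 rose by similar amounts in the cluster from ZNF175 to ZNF331. ZNF701 (52570287 to 52600149) had 12.5 and 11.9 CPM in DKO libraries and 4.65 and 5.60 CPM in WT libraries, 2.38-fold higher (log2 1.252 ± 0.097, edgeR adjusted p = 1.91e-26). Its span overlaps the pseudogene ZNF137P. It lies between ZNF808 (-0.20) and ZNF83 (-0.39), which were both called lower, with gaps of 1.53 kb and 12.2 kb. ZNF350, also called ZBRK1, encodes a KRAB zinc finger repressor that binds BRCA1. It had 14.1 and 12.6 CPM in DKO libraries and 5.75 and 5.72 CPM in WT libraries, 2.33-fold higher (log2 1.22 ± 0.093, edgeR adjusted p = 8.26e-27). Its span overlaps ZNF350-AS1, and since the strand setting of the counting is not given, sense and antisense reads cannot be told apart. Of its neighbours, ZNF613 was not called (0.11, adjusted p = 0.323) and ZNF614 was lower (-0.17, adjusted p = 0.0476).

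ZNF283, in the cluster from ZNF575 to ZNF180, had 35.2 and 31.2 CPM in DKO libraries and 23.8 and 22.3 CPM in WT libraries (log2 0.53 ± 0.064, edgeR adjusted p = 5.16e-13). In that cluster 8 of 16 tested genes were lower, and ZNF283 was the only one called higher. Smaller rises were seen for ZNF493 in 19p12, with 8.04 and 7.35 CPM in DKO libraries and 6.07 and 5.95 CPM in WT libraries (0.36 ± 0.10), and ZNF136 in 19p13, with 20.7 and 20.3 CPM in DKO libraries and 18.3 and 18.1 CPM in WT libraries (0.17 ± 0.070). Both lost their call when either WT library was left out, and ZNF136 also without either DKO library. With only 1 read required, both missed the threshold too (edgeR adjusted p = 0.065 for ZNF493 and 0.099 for ZNF136), and ZNF136 also with total counts (0.054) and the DESeq2 Wald test (0.112).

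Falls were more numerous and mostly shallow. ZNF211 in 19q13 (57633168 to 57644041) fell most among named genes, to 3.51 and 3.94 CPM in DKO libraries, against 7.81 and 7.11 CPM in WT libraries (log2 -1.001 ± 0.11, edgeR adjusted p = 3.66e-15). ZNF266 in 19p13 had 9.35 and 8.79 CPM in DKO libraries and 17.4 and 17.8 CPM in WT libraries (-0.96 ± 0.082, edgeR adjusted p = 1.09e-22). ZNF440 had 13.4 and 12.6 CPM in DKO libraries and 22.8 and 24.8 CPM in WT libraries (-0.87 ± 0.073, edgeR adjusted p = 1.98e-23). For each of these 3 genes the groups did not overlap, and the call held with any 1 library left out. ZNF577 in 19q13 had 36.6 and 32.7 CPM in DKO libraries and 54.4 and 54.6 CPM in WT libraries (-0.65 ± 0.056, edgeR adjusted p = 9.37e-23), while ZNF649, whose span starts 1.28 kb beyond it, was not called (0.010, adjusted p = 0.912). The span of ZNF577 overlaps FPR3. ZNF426, outside the rule for named genes because of its low level and named after its value was seen, had 14 and 12 reads in DKO libraries and 50 and 41 in WT libraries (-1.85 ± 0.31, edgeR adjusted p = 1.18e-07).

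Among tested genes, ZNF430, ZNF714 and ZNF431 follow each other in 19p12, and each was called lower. Unbroken stretches of lower calls also lay in 19q13, from ZNF45 to ZNF224 and from ZNF211 to ZNF587. Of all tested zinc finger genes 42.5% were called lower, against 21.1% of all tested genes. Whether falls lie together more than these shares give was not tested. ZNF431 had 115 and 107 CPM in DKO libraries and 147 and 160 CPM in WT libraries (-0.46 ± 0.047, edgeR adjusted p = 3.09e-17). ZNF430 had 80.6 and 75.3 CPM in DKO libraries and 95.4 and 101.1 CPM in WT libraries (-0.33 ± 0.048, edgeR adjusted p = 1.14e-09). ZNF714, which lies between them, had 87.6 and 81.4 CPM in DKO libraries and 97.7 and 102.1 CPM in WT libraries (-0.24 ± 0.048, edgeR adjusted p = 8.78e-06). Spans of ZNF431 and ZNF714 overlap other RefSeq genes, while that of ZNF430 does not. ZNF708, the next tested gene 95.1 kb on, was not called (-0.022, edgeR adjusted p = 0.782). Neither was ZNF85, the tested gene before ZNF430 (0.050, edgeR adjusted p = 0.668). ZNF714 missed the threshold without either WT library and with only 1 read required (edgeR adjusted p = 0.057). ZNF91, which represses SVA retrotransposons in human cells and is given for that role, outside the rule for named genes and with its values seen, had 60.0 and 56.9 CPM in DKO libraries and 54.01 and 61.3 CPM in WT libraries (0.020 ± 0.052, adjusted p = 0.795), and the groups overlapped.

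The other named falls were ZNF324B (-0.58), ZNF441 (-0.52), ZNF112 (-0.51), ZNF558 (-0.35) and ZNF254 (-0.27). Each missed the threshold without WT replicate 1, and ZNF112, ZNF558 and ZNF254 also without WT replicate 2, and ZNF254 without DKO replicate 2. With only 1 read required, ZNF324B (edgeR adjusted p = 0.051), ZNF112 (0.054) and ZNF254 (0.096) missed it, and ZNF112 also with the DESeq2 Wald test (0.086). Spans of ZNF324B, ZNF441, ZNF558 and ZNF254 overlap other RefSeq genes.

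**Figure D4:**
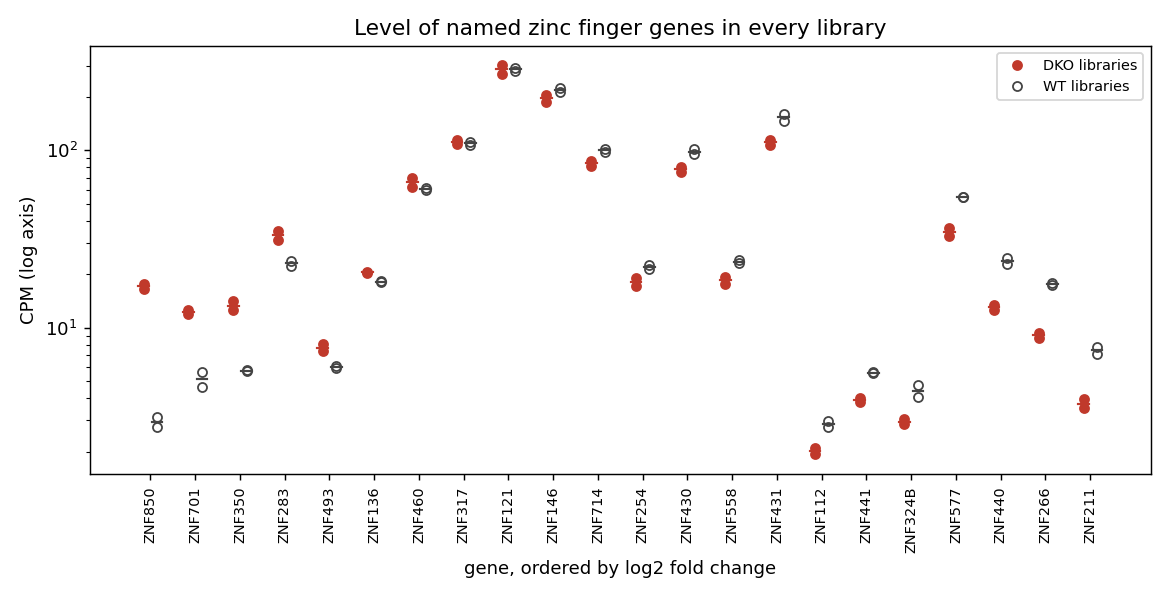
CPM (y axis, log scale) of the 22 named zinc finger genes in each library, ordered by log2 fold change (x axis); points are libraries and short lines are group means. ZNF850 stands at 17.7 and 16.5 CPM in DKO libraries and 2.74 and 3.13 CPM in WT libraries, while ZNF121 and ZNF317 overlap between groups.

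The 2 tested genes of each band with the highest CPM per kb of RefSeq span were also named. Genes of other bands, such as ZNF562 (4.03) and ZNF627 (3.87) in 19p13, exceeded those of 19p12. Of the genes so named, ZNF431 and ZNF430 fell as given above, ZNF146 was called lower and ZNF460 higher. ZNF121 and ZNF317 were not called. ZNF121 in 19p13 had 11.8 CPM per kb of RefSeq span on average, ahead of ZNF146 in 19q13 (8.63), ZNF317 in 19p13 (4.81) and ZNF460 in 19q13 (4.49), with ZNF431 (2.45) and ZNF430 (2.24) leading 19p12. The counted feature type is not given, so reads within introns may be missing from this value, and it need not rank genes by transcription. ZNF121 had 301 and 270 CPM in DKO libraries and 281 and 290 CPM in WT libraries (log2 fold change 0.00018 ± 0.049, adjusted p = 0.998). ZNF317 had 114 and 109 CPM in DKO libraries and 108 and 112 CPM in WT libraries (0.025 ± 0.047, adjusted p = 0.714). In both, the groups overlapped. ZNF146, which encodes a protein made almost wholly of fingers with no KRAB domain, had 205 and 188 CPM in DKO libraries and 214 and 224 CPM in WT libraries (-0.16 ± 0.048, edgeR adjusted p = 0.0038), and its span overlaps ZNF565. ZNF460 had 69.7 and 62.4 CPM in DKO libraries and 61.1 and 59.7 CPM in WT libraries (0.13 ± 0.051, edgeR adjusted p = 0.0345), and its span overlaps ZNF460-AS1. ZNF146 and ZNF460 each missed the threshold without either WT library, ZNF146 also without DKO replicate 2 and ZNF460 also without DKO replicate 1. With only 1 read required, both missed it as well (edgeR adjusted p = 0.16 for ZNF146 and 0.35 for ZNF460), and ZNF460 also with total counts (0.054) and the DESeq2 Wald test (0.112).

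Grouped into runs of genes whose neighbouring starts are at most 500 kb apart, the family formed 20 runs, of which 8 held at least 10 genes and together 222 of the 246. In the run from ZNF414 to ZNF846 in 19p13, 6 of 10 tested genes were lower and none higher (median log2 fold change -0.23). The adjoining run from ZNF653 to ZNF791 had 2 lower and 1 higher of 8 (-0.038). The run from ZNF101 to ZNF254, which spans 19p12, had 6 lower and 1 higher of 14 (-0.15). On the long arm, the run from ZNF565 to ZNF573, which holds ZNF850, had 3 lower and 3 higher of 12 (0.078). The run from ZNF575 to ZNF180 had 8 lower and 1 higher of 16 (-0.27), and that from ZNF175 to ZNF331, with ZNF350 and ZNF701, 11 lower and 2 higher of 22 (-0.15). Near the end of the arm, ZNF628 to ZNF835 had 4 lower and 3 higher of 8 (-0.27) and ZNF264 to ZNF446 11 lower and 1 higher of 23 (-0.16). The lower share in these 8 runs ranged from 25% to 60%, against 21.1% of all tested genes and 35.6% of other chromosome 19 genes, and whether any run differs from these was not tested.

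Gene span had a median of 28.0 kb in the 13 genes called higher, 19.01 kb in the 57 called lower, 23.2 kb in those not called and 23.5 kb in those not tested, against 12.8 kb in other protein-coding genes of the chromosome. Zinc finger genes of chromosome 19 with other names, such as ZFP14, ZBTB45 and MZF1, had 5 of 8 tested members lower and none higher, ZFP36, a CCCH-type finger gene, among them, against 21.1% of all tested genes and 35.6% of other chromosome 19 genes called lower.

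Genes of the KRAB corepressor pathway were called in both directions. Of 30 listed and tested, 5 were higher and 6 lower, with a median log2 fold change of 0.0086. These 11 calls stand against 40.1% called among all tested genes, so the count says nothing particular about the list. TRIM28, the corepressor that KRAB domains bind, had 3056 and 3102 reads in DKO libraries and 3348 and 2922 in WT libraries (-0.076 ± 0.052, adjusted p = 0.253), and leaving out WT replicate 1 gave 0.014. SETDB1 had 2697 and 2704 reads in DKO libraries and 2751 and 2830 in WT libraries (-0.098 ± 0.053, adjusted p = 0.133). ATF7IP, which stabilises SETDB1, was higher (0.32 ± 0.047, edgeR adjusted p = 1.70e-09), as were TRIM24 (0.20) and MORC2 (0.18), a partner of the HUSH silencing complex. The DNA methyltransferase gene DNMT3B, on chromosome 20, was lower (-0.38 ± 0.047, edgeR adjusted p = 1.12e-12), as was the remodeler gene CHD3 (-0.26). ATF7IP and TRIM24 missed the threshold without WT replicate 1, and MORC2 and CHD3 without either WT library or DKO replicate 1. MORC2 (edgeR adjusted p = 0.124) and CHD3 (0.081) also missed it with only 1 read required, and MORC2 with the DESeq2 Wald test (0.070). CHD4 was called lower (-0.77 ± 0.29) on 20 and 23 reads in DKO libraries and 42 and 29 in WT libraries, and lost the call with any 1 library left out, with the Wald test of DESeq2 (adjusted p = 0.246) and with only 1 read required (edgeR adjusted p = 0.157). Reads in overlapping features may go uncounted here too, so these few reads need not be its level, which was not tested.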

How the data were processed

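Raw read counts per Ensembl gene were deposited by the authors, 1 file per library with no header, from 66 ng of labelled RNA in a stranded kit read as single 75 bp reads, per the labels' protocols. STAR 2.7.3a, featureCounts 1.6 and build hg38 were used, per the submitters' processing notes. No source used here gives the gene set, the strand setting or the counted feature type, so overlapping, antisense and near-identical genes are uncertain. No spike-in was used here, and values are relative to library totals. Groups came from sample titles.

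A symbol was found for 42020 of 60656 features, and spans and gene types came from RefSeq GRCh38.p14. Bands were set by gene midpoint. The 4 libraries, each with at least 51142867 reads, were fitted with edgeR 4.0.16 (R 4.3.3; group as only term, TMM, filterByExpr with minimum count 10 and minimum total 15, quasi-likelihood F-test over all genes, Benjamini-Hochberg) and called at an adjusted p under 0.05. Standard errors are the absolute log2 fold change over the square root of F. Log2 CPM used a prior count of 2. The fit was run on simulated data, where the limit set for false calls was missed and was then replaced by a looser one, chosen with that outcome known. Replicate numbers were not taken as pairs. Alternatives were other scalings, filters, DESeq2 1.42.0, limma 3.58.1 voom, a replicate block and each library left out. Fits with 1 library missing take the spread of the remaining single library from the other group.

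Named genes were, in each band, the 4 largest rises and falls among called genes with groups that do not overlap and a mean log2 CPM of at least 1, the 2 with the highest CPM per kb, the 3 largest called changes each way among corepressors, and TRIM28 and SETDB1. Members and lists were chosen with earlier results of these data known. Planned counts of fingers per protein are not analysed here. A further marker list is not reported here.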

Additional observations from a re-analysis of the deposited data

How the results depend on the processing

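The split of 57 lower and 13 higher zinc finger genes kept its balance towards falls under every alternative run, but not its size. Requiring only 1 read gave 19 lower and 4 higher, and DESeq2's Wald test 33 and 6. With each library left out in turn, 10 to 55 were lower and 4 to 14 higher. The 70 tested genes without an overlapping RefSeq gene, a set added after the data were seen, had 28 lower and 9 higher. These are 40% and 12.9% of that smaller set, against 42.5% and 9.70% of all 134 tested genes. With the replicate number as a block, 56 were lower and 13 higher, and same-numbered libraries did not deviate together (r = 0.011). Over all genes, requiring only 1 read gave 1655 lower and 1640 higher, DESeq2 2524 lower, and leaving out a library 928 to 3443 lower and 1023 to 3127 higher. Corepressors had 9 higher with upper quartile factors, 2 lower and 2 higher with only 1 read required, and 1 to 5 lower and 0 to 4 higher with a library left out. The median in 19p13 ranged from -0.18 to -0.059 and that in 19p12 from -0.17 to 0.0080 with a library left out. Without overlapping genes the medians were 0.027 in 19p12 and -0.073 in 19q13. Medians by run, in place of bands, are given above. Among genes with at least 50 reads in 2 libraries, the mean level in 19q13 against other chromosome 19 genes was 0.11 and 0.022 in DKO libraries and -0.065 and 0.018 in WT libraries, which did not overlap (exact p = 0.333, the smallest possible). Of the 30 named genes, 3 that were not called changed sign: ZNF121 with total counts (-0.0030), only 1 read required (-0.0070), voom (-0.0017), the block (-0.0016) and a library left out (-0.078 to 0.075), ZNF317 (-0.0089 to 0.059) and TRIM28 (-0.16 to 0.014) with a library left out. The causes of these differences between settings were not tested. The 112 untested genes had too few counted reads to enter the fit, so whether they changed is not known.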
